A study of Mus musculus with 8 samples.

Results

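The THO complex subunits are encoded by 6 mouse genes, Thoc1, Thoc2, Thoc3, Thoc5, Thoc6 and Thoc7. They were taken as all non-control probes annotated with these symbols on the array, which gave 9 probes, and the brightest probe stands for each gene; the 6 genes are among 17998 that passed the filter on dim probes. THO is the core of TREX, a complex that joins nascent messenger RNA, links its transcription and processing, and helps to hand it to the export receptor. Thoc2 is the large scaffold, Thoc1 and Thoc3 belong to the part conserved down to yeast, and Thoc5, Thoc6 and Thoc7 are components of the animal complex, with Thoc5 and Thoc7 bound to each other. In macrophages Thoc5 is known as a protein that interacts with Fms, the receptor for CSF-1, the cytokine that drives macrophage differentiation.

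The study used bone marrow derived macrophages of mice of a C57BL/6 x B6:129 Ola background. All mice carried ERT2 Cre, a recombinase that acts on loxP sites once tamoxifen is given, and flox cells carried Thoc5 flox/flox in addition. Control and flox cells were harvested at day 0 and, under CSF-1, at day 3 without or with tamoxifen. This made 4 groups, called untreated control, treated control, untreated flox and treated flox below, where treated means with tamoxifen. Each group had 2 arrays, 1 from each of 2 biological experiments, so there were 8 arrays of 12 RNA samples. Each 2-colour Agilent array held day 3 RNA in one channel and, in the other, day 0 RNA matched to it by genotype and experiment, and dyes were exchanged in experiment 2. The promoter of the recombinase, the ages of the mice and the exons between the loxP sites are not given in the sources used here.

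Only cytoplasmic RNA was measured, so these values do not separate the amount of a transcript from its share in the cytoplasm. In bulk RNA, fewer cells of a type and less RNA per cell cannot be told apart. Of 11 macrophage markers measured, 6 to 7 were called higher at day 3 in the 4 groups, where called means a Benjamini-Hochberg adjusted p under 0.05 over all genes in the limma fit; 0 to 4 were called lower, and their summed log2 level was 19.30 to 19.81 at day 0 and 19.97 to 20.18 at day 3. Of 12 neutrophil and precursor markers, 11 to 12 were called lower, with a summed log2 level of 18.95 to 19.73 at day 0 and 15.64 to 16.39 at day 3. All 6 megakaryocyte and platelet markers were called lower as well, from 17.68 to 18.18 at day 0 to between 15.46 and 16.35 at day 3. All 10 markers of dividing cells were called lower in every group, with 17.90 to 18.24 at day 0 and 15.98 to 17.10 at day 3. The part of these cell populations in the day 3 results below was not tested.

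All 9 probes were well above background in 16 of 16 channel readings, and 0 were saturated. Their brightness differed. The Thoc1 probe was the dimmest, with a mean log2 intensity of 8.30, followed by the dimmer Thoc2 probe with 8.55. The others ran from 10.82 to 14.22. Net of background, Thoc1 read 92.6 to 483, beside an offset of 50 added in the correction. How far low brightness shapes these ratios was not tested. Positions are on the mm9 build used by the array design. The Thoc5 probe lies at chr11:4828807-4828866 on the plus strand, and whether it falls in the part removed by the recombinase is not given. Thoc3 was read at chr13:54567566-54567625. The Thoc2 probes lie 77051 bases apart, the brighter at chrX:39148381-39148440 and the dimmer at chrX:39225492-39225551. The Thoc6 probes, at chr17:23805740-23805799 and chr17:23805765-23805824, share 35 bases and are close to being 1 measurement. The Thoc7 probes lie 3936 bases apart, the brighter at chr14:14781607-14781666 and the dimmer at chr14:14785603-14785662, and they are annotated to different transcript accessions.

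The sequences of 3 of these designed probes of 60 bases are shown, 5′ to 3′. They are the probe of the subunit that rose at day 3 in every group, and the dimmer probes of Thoc2 and Thoc7, which moved against the brighter probe of the same gene. All letters are lower case, since no base within them is singled out.
Thoc3 probe: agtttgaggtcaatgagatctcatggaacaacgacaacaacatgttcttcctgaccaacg
Thoc2 dimmer probe: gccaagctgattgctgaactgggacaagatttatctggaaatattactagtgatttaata
Thoc7 dimmer probe: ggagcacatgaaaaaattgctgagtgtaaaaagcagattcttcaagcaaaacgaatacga
The GC content was 43.3% for the Thoc3 probe, 35% for the Thoc2 dimmer probe and 36.7% for the Thoc7 dimmer probe.

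Thoc5, the gene flanked by loxP sites, was the one subunit of the 6 that passed the test for a change with tamoxifen, in flox cells. Its log2 ratio of day 3 over day 0 was -0.40 in experiment 1 and -0.28 in experiment 2 in untreated control cells. Treated control cells gave -0.21 and -0.15. In untreated flox cells it was -0.74 and -0.77, and in treated flox cells -3.04 and -3.02. The values of the 4 groups did not overlap, and the arrays of treated flox cells lay far below all others.

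**Figure D1:**
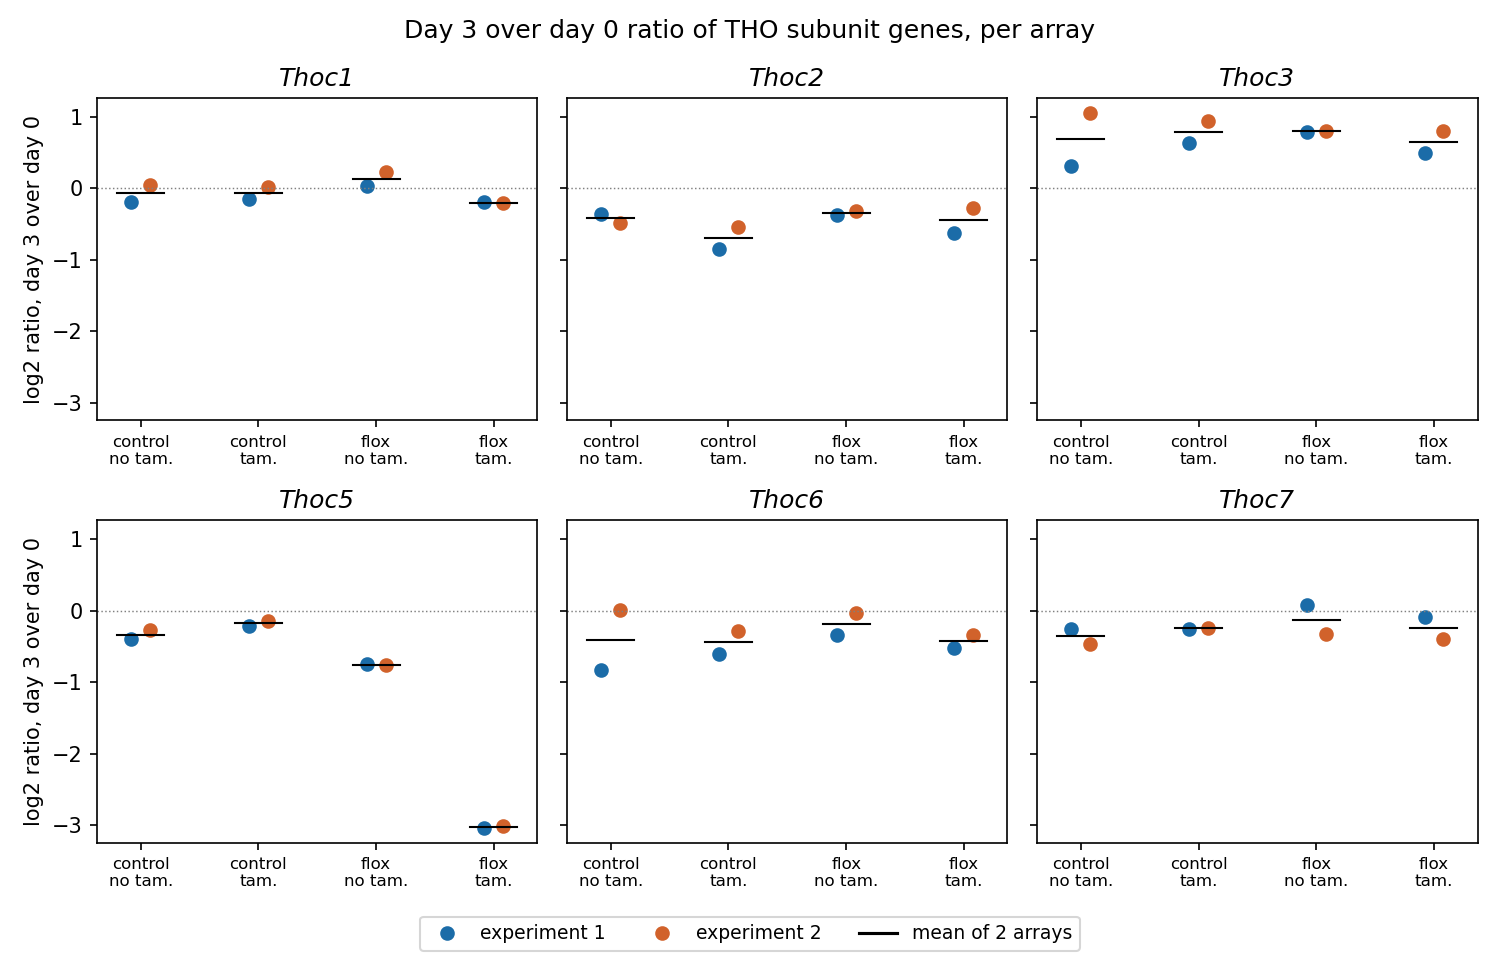
Log2 ratio of day 3 over day 0 (y axis) for each THO subunit gene in the 4 groups (x axis); each point is 1 array, coloured by experiment, and the line is the mean of 2 arrays. Thoc5 in flox cells with tamoxifen lies near -3, and Thoc3 is above 0 on all 8 arrays.

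On these ratios, 12.2% and 12.3% of the day 0 level of Thoc5 was left at day 3 in treated flox cells of experiments 1 and 2; with the authors' deposited ratios it was 11.2% and 10.3%. The tamoxifen effect, treated minus untreated, on Thoc5 in flox cells was -2.27 ± 0.10 (log2, SE of the limma fit, n = 2 arrays a group). This is 4.83-fold lower and left 20.7% of the untreated ratio (limma adjusted p = 0.000723). The experiments gave -2.30 and -2.25. In control cells the effect was 0.16 ± 0.10 (limma adjusted p = 1.00), with 95% limits of -0.08 and 0.39. The 2 effects differed by -2.43 ± 0.14 on the log2 scale (flox minus control, limma adjusted p = 0.00902). That call was lost without 1 array for 5 of the 8 arrays: either treated control array, either untreated flox array, or the treated flox array of experiment 2. In those fits every other gene called in the main fit lost its call too, so the loss is not particular to Thoc5. The Thoc5 value then stayed between -2.48 and -2.38. Of 10 dividing-cell markers, 4 were called lower for the same difference, with a median of -0.99; their part in the result was not tested. With 2 samples against 2, an exact two-sided permutation test cannot give a p below 0.333.

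Read against the other genotype, the Thoc5 ratio of day 3 over day 0 was 7.20-fold lower in treated flox than in treated control cells. The log2 difference was -2.85 ± 0.10 (limma adjusted p = 0.000752). In the same comparison 4 of 6 megakaryocyte and platelet markers, 3 of 5 measured B lineage markers, 3 of 12 neutrophil and precursor markers and 3 of 11 macrophage markers were called lower. Summed log2 levels in treated control and treated flox cells were 15.94 to 16.31 and 15.47 to 16.24 for the first list, and 13.45 to 13.58 and 11.87 to 12.21 for the second. They were 16.10 to 16.39 and 15.82 to 16.01 for the third, and 20.10 to 20.14 and 19.97 to 20.06 for the last. Of 10 dividing-cell markers 1 was called lower, and 0 of 4 measured erythroid and 0 of 6 stromal markers were called. Over all genes, 11.3% were called in either direction. The part of all these markers in the result was not tested. Without the treated control array of experiment 1, the Thoc5 difference was -2.86 and its call was lost. Every other gene called in this comparison lost its call too. Without tamoxifen the ratio in flox cells was 0.42 ± 0.10 below that in control cells, which did not pass the test (difference -0.42, limma adjusted p = 0.0730). The experiments gave -0.35 and -0.49.

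The channel levels show where this difference lies. They are log2 intensities of 1 RNA sample after normalization of all channels, and are comparable only within a probe. At day 0, Thoc5 was at 12.58 and 12.67 in control cells and at 12.60 and 12.50 in flox cells, which overlap (difference -0.07 ± 0.12, limma adjusted p = 0.971). At day 3 without tamoxifen, it was at 12.21 and 12.43 in control cells and at 11.86 and 11.67 in flox cells. These do not overlap, and the difference of the day 3 levels was -0.56 ± 0.12 (limma adjusted p = 0.0292). The standard error and p come from a fit of all 12 RNA samples, day 0 included, not of day 3 alone. At day 3 with tamoxifen the levels were 12.35 and 12.48 in control cells and 9.56 and 9.54 in flox cells. So the untreated flox cells had the lower Thoc5 level at day 3 by this measure, while by the ratio the same comparison missed the threshold. The fit of levels took the 12 samples as independent, though each day 3 level shares an array with a day 0 level. The ratio keeps that pairing, so the p of the levels does not stand in for it. Over all genes, 1962 were called in that comparison by the day 3 levels, beside 516 by the ratio. Dividing-cell markers differed in that comparison too: 7 of 10 were called higher in flox cells, with a median log2 difference of 0.75. Their summed log2 level at day 3 was 16.10 and 15.98 in untreated control cells and 17.10 and 16.94 in untreated flox cells; their part in the result was not tested.

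**Figure D2:**
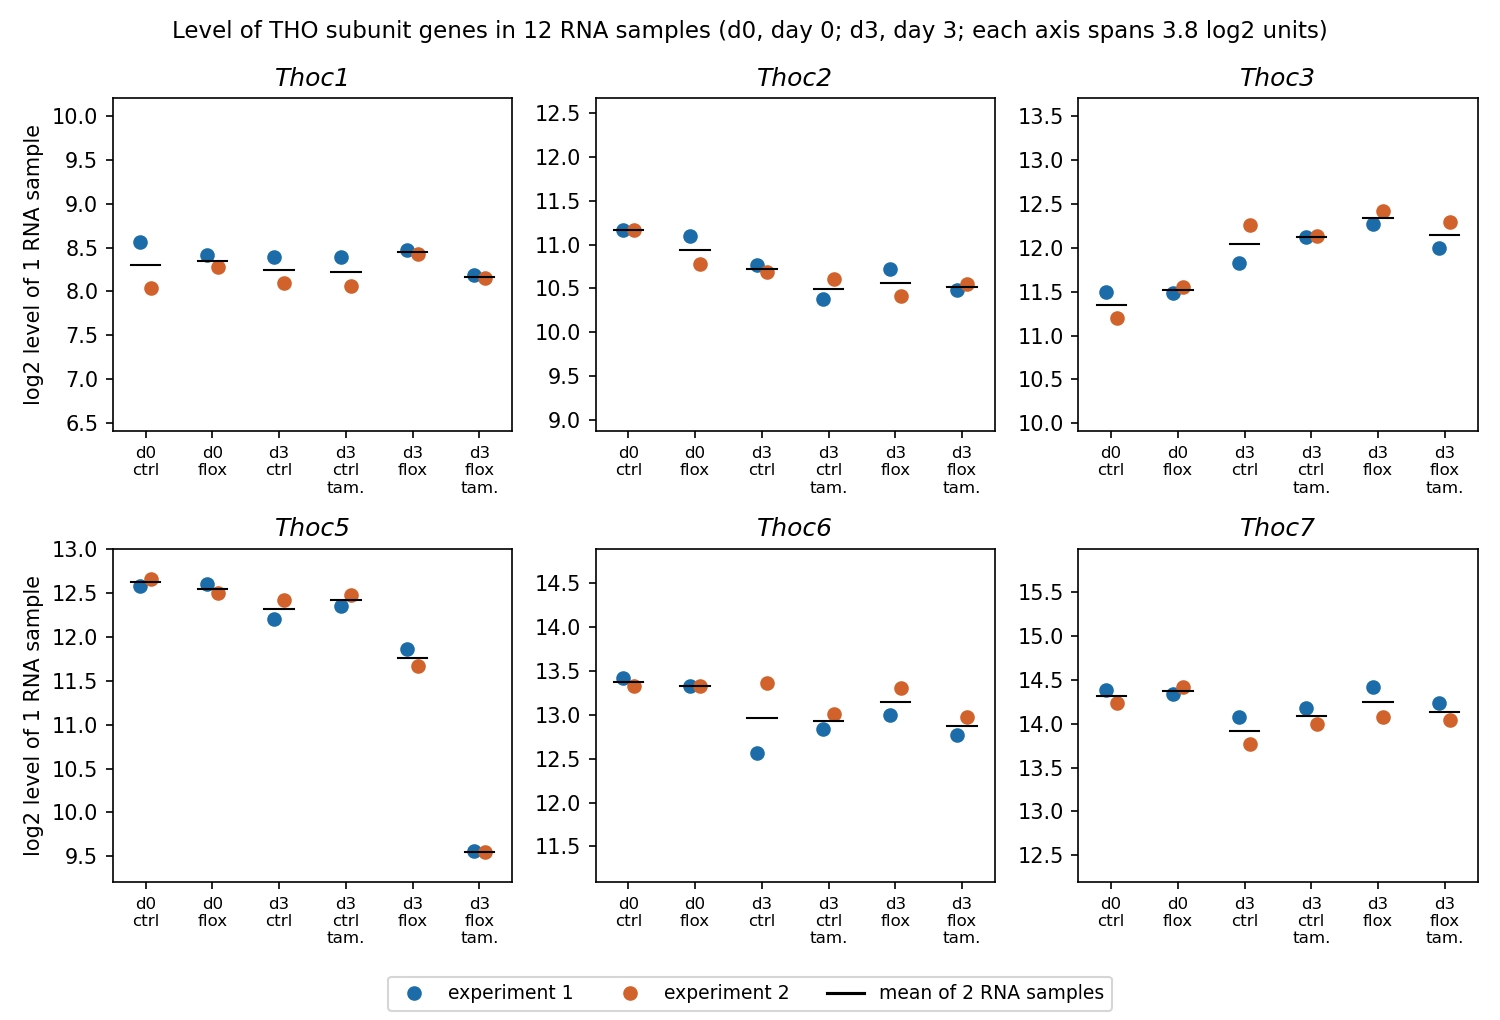
Log2 level (y axis, arbitrary intensity units) of each THO subunit gene in 6 conditions (x axis) at day 0 (d0) and day 3 (d3); each point is 1 RNA sample, and every axis spans the same number of log2 units. Thoc5 stands at 12.50 to 12.67 at day 0 and at 9.54 and 9.56 in tamoxifen-treated flox cells.

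The order of the Thoc5 levels was day 0 control, day 0 flox, day 3 treated control, day 3 untreated control, day 3 untreated flox and day 3 treated flox. The first pair overlapped, as did the pair of day 3 control conditions; each other pair of neighbours was separated. Repeat readings bear on how fine a difference can be read. Each day 0 RNA was hybridised to 2 arrays, and over the 24 such pairs of the 6 genes the readings differed by a median of 0.04 and at most 0.16 on the log2 scale.

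Among the other subunits the levels were closer together. Thoc1 ran from 8.04 to 8.57 at day 0 and from 8.06 to 8.47 at day 3, and among neighbours in its order only the highest, untreated flox at day 3, was apart from the next, day 0 flox. Thoc2 by its brighter probe ran from 10.78 to 11.17 at day 0 and from 10.37 to 10.76 at day 3; day 0 control, day 0 flox and untreated control at day 3 were apart from each other, and from there on each condition overlapped its neighbour in the order. Thoc6 ran from 13.32 to 13.42 at day 0 and from 12.57 to 13.36 at day 3, with its 2 day 0 conditions overlapping at the top and apart from the next, untreated flox at day 3. Thoc7 ran from 14.24 to 14.42 at day 0 and from 13.77 to 14.42 at day 3, and all neighbours in its order overlapped. The separations of day 0 flox from day 3 are narrow, since each day 0 level is the mean of 2 readings. For Thoc1 a single day 0 flox reading was 8.44, above the 8.42 of untreated flox at day 3. For Thoc2 one was 10.73, below the 10.76 of untreated control, and for Thoc6 one was 13.301, below the 13.303 of untreated flox. How many of all genes separate in this way was not counted.

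None of the other 5 subunits passed the test for a tamoxifen effect in flox cells. Their log2 changes ran from -0.33 to -0.10, beside a median of -0.01 over all genes. All are read against the same untreated flox arrays, where the log2 ratios of these 5 lay 0.07 to 0.24 above untreated control. The widest 95% limits of the tamoxifen effect were -0.64 and 0.26, so a fall of up to 1.56-fold lies within them. Over all genes, 9.02% were called in this comparison, and 1 of 6 members was. In control cells 0 of 6 members were called by limma and 0 had an unadjusted p under 0.05. Over all genes 0% were called, and 997 of 17996 genes tested had an unadjusted p under 0.05. For the difference of the 2 effects, 1 of 6 members was called against 1.13% of all genes, and the other 5 ran from -0.34 to 0.17.

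Thoc1, a subunit of the conserved core read at chr18:9995224-9995283, had the lowest value among the other 5. Its tamoxifen effect in flox cells was -0.23 in experiment 1 and -0.43 in experiment 2, a mean of -0.33 ± 0.11 (limma adjusted p = 0.111). When only the arrays compared were fitted, the value stayed and passed the threshold (limma adjusted p = 0.0468). That fit called 4661 genes over all genes, beside 1623 in the main fit. In those flox cells the Thoc1 level was 8.47 and 8.42 without tamoxifen and 8.19 and 8.15 with it, which do not overlap. Control cells at day 3 ran from 8.06 to 8.40, so the treated flox values lie within their range and the untreated ones above it. In this comparison, 4 of 10 dividing-cell markers were called lower, with a median log2 change of -0.41. Their summed log2 level was 17.10 and 16.94 in untreated and 16.55 and 16.53 in treated flox cells; their part in the result was not tested.

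Thoc7, the partner of Thoc5, had a tamoxifen effect in flox cells of -0.12 ± 0.13 (limma adjusted p = 0.640), with 95% limits of -0.42 and 0.19. Its level was 14.42 and 14.07 without tamoxifen and 14.23 and 14.04 with it, and the groups overlap. Thoc2 gave -0.10 ± 0.14, Thoc3 -0.15 ± 0.17 and Thoc6 -0.24 ± 0.17, each with limma adjusted p above that of Thoc1. These intervals allow changes in either direction.

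**Figure D3:**
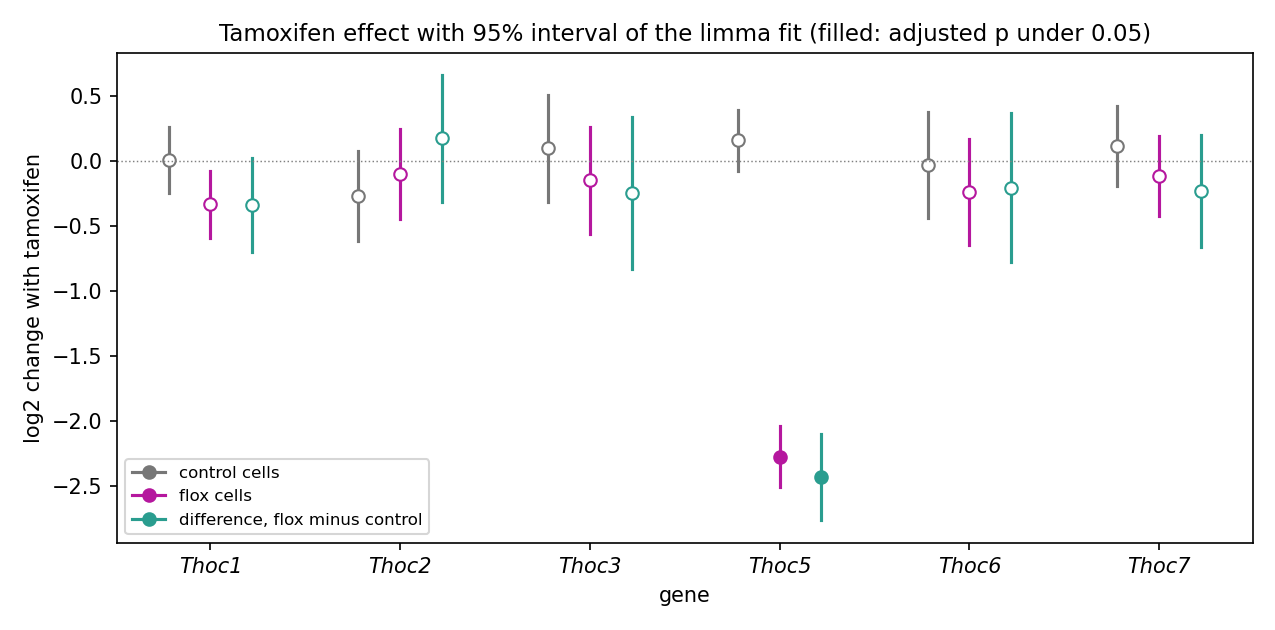
Log2 change with tamoxifen (y axis) for each THO subunit gene (x axis) in control cells, in flox cells and as their difference; points are estimates of the limma fit, bars its 95% intervals, and filled points passed an adjusted p of 0.05. Filled points are seen at Thoc5 alone, at -2.27 and -2.43.

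Genotype comparisons of the other 5 subunits gave no call. Without tamoxifen their log2 differences, flox minus control, ran from 0.07 to 0.24, with 0 of 6 members called by limma, 1 (Thoc5) at an unadjusted p under 0.05, and 2.87% of all genes called. With tamoxifen they ran from -0.14 to 0.24, with 1 of 6 members called (Thoc5) and 11.3% of all genes. At day 0 they ran from -0.22 for Thoc2 to 0.17 for Thoc3, with 0 of 6 members called by limma, 0 at an unadjusted p under 0.05, and 1.14% of all genes called. Of 12 neutrophil and precursor markers, 6 were called higher in flox cells at day 0. Thoc2 at day 0 was 11.17 and 11.16 in control cells and 11.10 and 10.78 in flox cells, which do not overlap (difference -0.22 ± 0.14, limma adjusted p = 0.847).

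Between day 0 and day 3 the subunits moved in different directions. Thoc3 rose in all 4 groups, Thoc2 fell in all 4 by its brighter probe, and Thoc1 was called in none of them. In untreated control cells 5 of 6 members were called, 1 higher and 4 lower, against 57.4% of all genes. It was 3 of 6 in treated control cells (57.6% of genes), 3 of 6 in untreated flox cells (57.3%) and 4 of 6 in treated flox cells (58.9%). The first of these counts was 3 with no term for the experiment, where calls over all genes fell from 10322 to 8094. Each of the 4 counts also fell without either of its own arrays, as did calls over all genes. With so few members and over 57% of genes called, these counts say little about the members. The median change of the 6 genes was -0.35, -0.22, -0.16 and -0.34 in this order, beside -0.06, -0.05, -0.05 and -0.05 over all genes. Each pair of groups of a genotype shares its day 0 RNA, so the 4 comparisons are not independent.

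Thoc3 encodes a WD-repeat subunit. Its log2 ratio was 0.32 and 1.06 in untreated control cells, 0.63 and 0.93 in treated control cells, 0.79 and 0.80 in untreated flox cells and 0.50 and 0.80 in treated flox cells. All 8 arrays were above 0 and the 4 groups overlapped. The changes were 1.61-fold, 1.72-fold, 1.74-fold and 1.57-fold in this order, with a standard error of 0.12 on the log2 scale and limma adjusted p of 0.00187 to 0.00413. The levels were 11.20 to 11.56 in the 4 day 0 samples and 11.83 to 12.42 in the 8 day 3 samples, with no overlap. Without the treated flox array of experiment 1, the call in that group was lost (0.62, limma adjusted p = 0.0620).

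Thoc2, the scaffold, gave opposite answers by its 2 probes. By the brighter probe the log2 ratio was -0.35 and -0.49 in untreated control cells, -0.84 and -0.55 in treated control cells, -0.38 and -0.32 in untreated flox cells and -0.63 and -0.27 in treated flox cells. All 8 arrays were below 0, and the changes of -0.42, -0.69, -0.35 and -0.45 passed the test (standard error 0.10, limma adjusted p of 0.00157 to 0.0247). The call was lost in untreated control cells without the array of experiment 2, where the change was -0.24 (limma adjusted p = 0.174). It was also lost in treated flox cells without that of experiment 1 (-0.31, limma adjusted p = 0.171) and in untreated flox cells without either array (-0.40 and -0.29, limma adjusted p of 0.117 and 0.228).

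By the dimmer Thoc2 probe all 8 arrays were above 0, from 0.31 to 1.79. Its changes were 0.92 and 0.85 in untreated and treated control cells, which did not pass in a fit of all probes (limma adjusted p of 0.0601 and 0.0752). They were 1.56 and 1.19 in untreated and treated flox cells, which passed (standard error 0.35, limma adjusted p of 0.00883 and 0.0239). The mean of both probes turned the direction of the gene, to 0.25, 0.08, 0.61 and 0.37 in the order above, and passed the test in untreated flox cells (limma adjusted p = 0.0228). No direction can therefore be given for Thoc2 as a whole. A near copy, Thoc2l, has a probe of its own, and how far its RNA binds to either Thoc2 probe is uncertain.

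**Figure D4:**
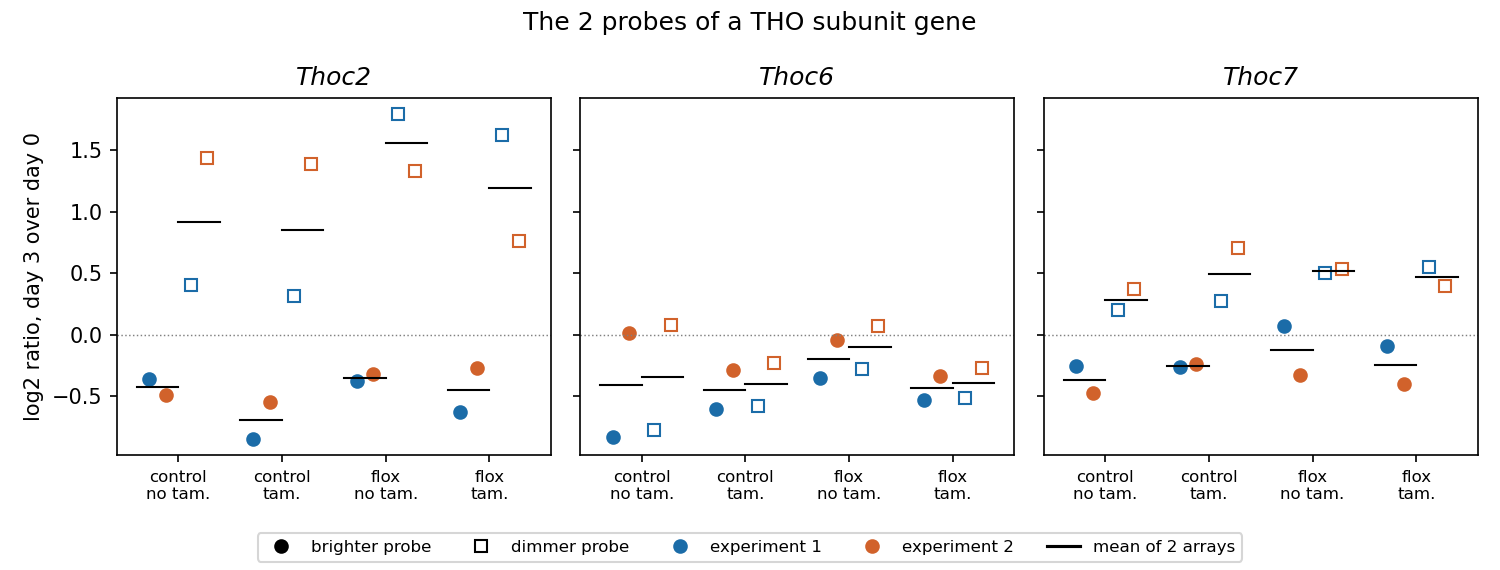
Log2 ratio of day 3 over day 0 (y axis) of the brighter probe (filled circles) and the dimmer probe (open squares) of Thoc2, Thoc6 and Thoc7 in the 4 groups (x axis); each point is 1 array, coloured by experiment, and lines are means of 2 arrays. The dimmer probes of Thoc2 and Thoc7 are above 0 on all 8 arrays, while those of Thoc6 follow each other.

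Thoc7 was split in the same way. Its brighter probe had log2 ratios of -0.26 and -0.47 in untreated control cells, -0.26 and -0.24 in treated control cells, 0.07 and -0.32 in untreated flox cells and -0.09 and -0.40 in treated flox cells. A single array was above 0, and of the 4 groups the first passed the test (-0.36 ± 0.09, limma adjusted p = 0.0134). That call was lost without either of its arrays (limma adjusted p of 0.0845 and 0.0853), with no term for the experiment (0.0532), with the authors' deposited ratios (-0.24, limma adjusted p = 0.0718), with median centring in place of loess (-0.35, limma adjusted p = 0.0773) and with the mean of both probes (-0.04, limma adjusted p = 0.749). The dimmer probe was above 0 on all 8 arrays, from 0.20 to 0.71. It passed the test in treated control, untreated flox and treated flox cells, with changes of 0.49, 0.52 and 0.47 (standard error 0.11, limma adjusted p of 0.00642 to 0.00885). Its tamoxifen effect in flox cells was -0.05 ± 0.15 (limma adjusted p = 0.899), beside -0.12 by the brighter probe.

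Thoc6, a WD-repeat subunit, was read alike by its overlapping probes. Its log2 ratio was -0.83 and 0.01 in untreated control cells, -0.60 and -0.29 in treated control cells, -0.35 and -0.04 in untreated flox cells and -0.53 and -0.34 in treated flox cells. Experiment 1 was the lower in every group. The changes of -0.41, -0.44 and -0.43 in the first, second and last of these groups were called (limma adjusted p of 0.0181 to 0.0246), and -0.19 in untreated flox cells was not (limma adjusted p = 0.207). The first call rests on the array of experiment 1, without which the change was -0.12 (limma adjusted p = 0.367). The others were lost without either of their arrays, with changes of -0.51 and -0.38 in treated control cells and -0.58 and -0.29 in treated flox cells (limma adjusted p of 0.0554 to 0.252). In a fit with no term for the experiment, which is the replicate block here, 0 of the 3 calls by limma held (limma adjusted p of 0.104 to 0.129). Experiment and dye direction cannot be told apart.

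Thoc5 in untreated control cells was 1.26-fold lower at day 3 (-0.34 ± 0.07, limma adjusted p = 0.00644), a call lost without the array of experiment 1 (-0.29, limma adjusted p = 0.0649). Treated control cells gave -0.18 ± 0.07 (limma adjusted p = 0.0617), and -0.21 with the authors' deposited ratios, which passed (limma adjusted p = 0.0474). In untreated flox cells it was 1.69-fold lower (-0.76 ± 0.07, limma adjusted p = 0.000269). In treated flox cells it was 8.16-fold lower (-3.03 ± 0.07, limma adjusted p = 2.40e-06). Thoc1, read by the dimmest of the member probes, was near 0, between -0.20 and 0.23 on the 8 arrays, with 4 above and 4 below. With the authors' deposited ratios, its change in untreated flox cells was 0.38 in place of 0.13 and was called (limma adjusted p = 0.0133).

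Of the other TREX and TREX-2 genes, more were called lower than higher at day 3. All 21 listed genes were measured. In untreated control, treated control, untreated flox and treated flox cells 12, 13, 13 and 13 were called lower, beside 34%, 33.7%, 33.4% and 33.4% of all genes. Those called higher were 1, 1, 3 and 2, beside 23.3%, 23.9%, 23.9% and 25.5% of all genes. The median changes of the list were -0.38, -0.37, -0.32 and -0.43.

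Alyref, the adaptor that binds messenger RNA and the export receptor, changed by -1.33, -1.24, -0.86 and -1.02 in these 4 groups (standard error 0.08, limma adjusted p of 7.29e-05 to 0.000300). Nxf1, the export receptor itself, changed by -0.80, -0.89, -0.89 and -0.90 (standard error 0.12), and Poldip3, an RNA-binding TREX component, by -0.64, -0.70, -0.82 and -0.65 (standard error 0.08). All of these were called. Ddx39b, the helicase that joins THO, fell in the first 3 groups with -0.59, -0.54 and -0.36, and stood at 0.03 in treated flox cells (limma adjusted p = 0.795). Ncbp3, a cap-binding protein, changed by -0.56, -0.64, -0.79 and -0.71. Zc3h11a, a zinc finger protein of TREX, changed by -0.38, -0.49, -0.86 and -0.74, and Sem1, a small subunit of TREX-2 and of the proteasome, by -0.36, -0.40, -0.41 and -0.58, all called.

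The genes called higher were chosen for naming after their values were seen. Cetn2, a centrin of TREX-2, rose in all 4 groups, by 0.22, 0.25, 0.37 and 0.35. Its relative Cetn3 rose in untreated and treated flox cells, by 0.31 and 0.50, and Ncbp2, of the nuclear cap-binding complex, in untreated flox cells by 0.52.

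**Figure D5:**
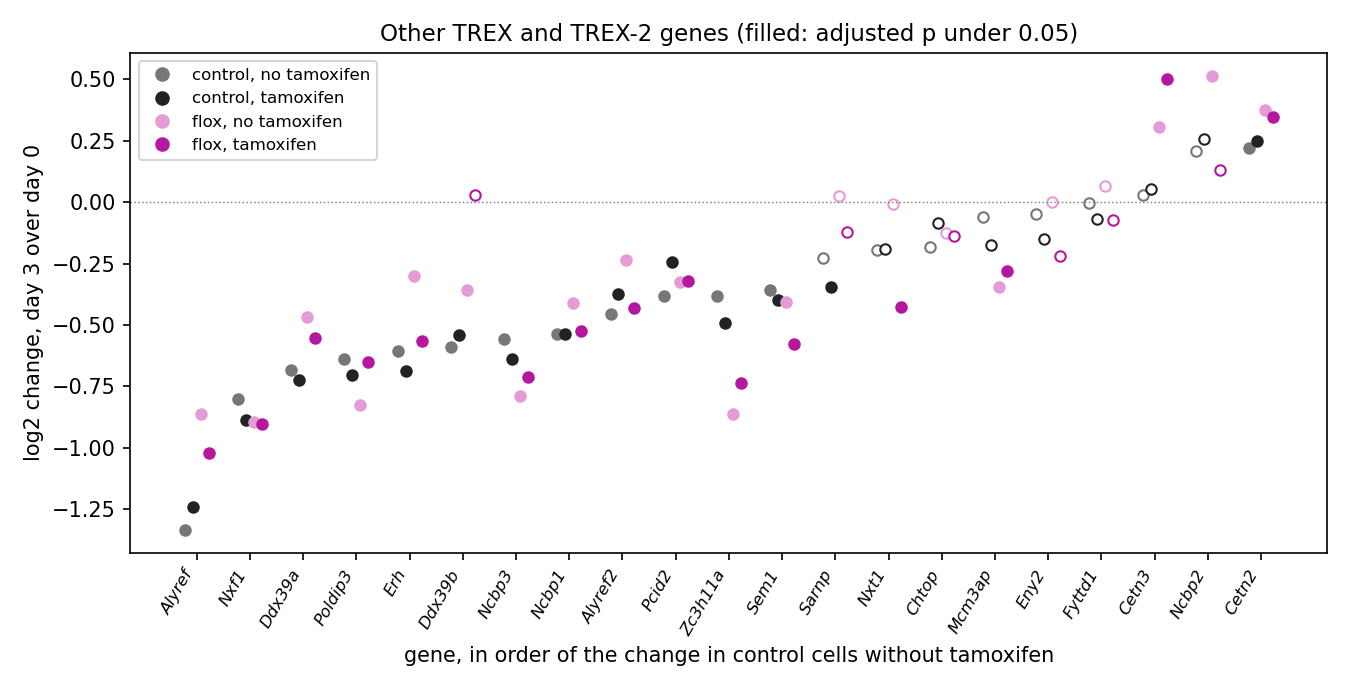
Log2 change of day 3 over day 0 (y axis) of 21 TREX and TREX-2 genes outside THO (x axis, in order of the change in control cells without tamoxifen) in the 4 groups; filled points passed an adjusted p of 0.05 in the limma fit. Alyref lies between -1.33 and -0.86, and Cetn2 is above 0 in each group.

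For the tamoxifen effect in flox cells, 0 of these 21 genes were called by limma, beside 9.02% of all genes. There were 2 at an unadjusted p under 0.05, and the median change was -0.09. For the difference between genotypes in the tamoxifen effect, 0 were called by limma, beside 1.13% of all genes, and 0 had an unadjusted p under 0.05. In the genotype comparison with tamoxifen 1 was called, Ddx39b, at 0.57 ± 0.13 higher in flox cells (limma adjusted p = 0.0372). Over all genes 11.3% were called there, so 1 of 21 is not more than that share. Without tamoxifen 0 were called by limma, beside 2.87% of all genes, with 2 at an unadjusted p under 0.05. At day 0 and for tamoxifen in control cells, 0 were called by limma and 0 had an unadjusted p under 0.05. Over all genes 1.14% and 0% were called in these.

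Of the genes whose probes lie within 100 kb of the Thoc5 probe, Nipsnap1 was the one that passed the filter, 34604 bases away. Its tamoxifen effect in flox cells was -0.09 ± 0.17 (limma adjusted p = 0.825), and its genotype difference without tamoxifen was 0.65 ± 0.17 (limma adjusted p = 0.0981).

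Across the 8 log2 ratios, the pattern of Thoc5 was most like that of H4f16 (Pearson r = 0.996), followed by the transcript ENSMUST00000102977 (0.990) and Slc16a6 (0.990), out of 17929 genes with a value on every array. For Thoc1 these were Rasd2 (0.976), Cox18 (0.972) and Ercc8 (0.970), and for Thoc2 Fnbp1l (0.948), Csnk2a1 (0.946) and Katnbl1 (0.941). For Thoc3 they were B3galt6 (0.979), LOC100046079 (0.974) and Tdg (0.974). Thoc6 was most like Celf1 (0.983), Pak1ip1 (0.983) and Srsf2 (0.978), and Thoc7 most like Taf1b (0.988), Nek4 (0.960) and Nudt2 (0.956). The arrays of an experiment share dye direction, and those of a genotype and experiment share day 0 RNA, so these are descriptions of 8 linked values. For Thoc5, the 2 treated flox arrays, at -3.04 and -3.02, stand far from all others and weigh most on r. A gene that is low on those arrays can reach a high r whatever its values elsewhere. Among the subunits, Thoc3 and Thoc6 had the highest r over the ratios (0.90), but over the 12 levels it was -0.34. Thoc2 and Thoc3 had the lowest over the levels (-0.85), and 0.11 over the ratios. Thoc5 and Thoc7 had -0.08 and 0.13.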

How the data were processed

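The authors scanned the arrays with Agilent Feature Extraction 10.7.3.1, per the submitters' processing notes. Intensity values of both channels, flags (used as given) and the log10 ratio of the processed signals were read from the deposited scanner files; the deposited value table holds that log10 ratio turned to day 3 over day 0, equal within 5e-10. Here, mean intensities were corrected with normexp (offset 50) and normalized by loess with limma 3.58.1 in R 4.3.3, which gave log2 ratios. Probes well above background in both arrays of a group in 1 channel were kept (22401 of 39429). Symbols were updated through RefSeq (GRCm38.p6, names only).

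The limma model held 4 group means and the experiment, with 3 residual and 3.45 prior degrees of freedom. Levels come from Aquantile-normalized channels, with 4 residual and 3.73 prior degrees of freedom. Their fit held all 12 RNA samples with terms for experiment and dye, and none for the array that levels share. Tests were two-sided, Benjamini-Hochberg adjusted over all genes, and called under 0.05. The p-values rest on how far the 2 biological experiments differ within a group once their common shift is removed. That spread was pooled over the groups. The design text pairs arrays by experiment, and replicate deviations correlated between groups at 0.31 to 0.73. The number of arrays limits the precision.

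Named genes were all members and probes, up to 4 called TREX genes per comparison, genes near Thoc5, and 3 genes most like each member. Members and lists were chosen with earlier results of these data known. Scripts were tested on simulated data.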

Additional observations from a re-analysis of the deposited data

Results flagged for a closer look

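Thoc5 responded differently to tamoxifen in the 2 genotypes: the difference of the effects, flox minus control, was -2.43 on the log2 scale. With tamoxifen, the Thoc5 ratio of day 3 over day 0 also differed between the genotypes, by -2.85 (flox minus control). Both were tested directly in the limma fit across all genes, and both are the gene that the loxP sites flank.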

How the results depend on the processing

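Of 528 member results under alternatives other than leaving out an array, 494 kept direction and side of the threshold, 7 lost and 5 gained a call, and 22 changed sign, 4 of them called before. With the mean of all probes, the members called in control cells without tamoxifen at day 3 were 3, not 5; Thoc2 at day 3 became 0.25 and 0.078 in control cells without and with tamoxifen and 0.61 and 0.37 in flox cells, Thoc7 became 0.12 in control cells with tamoxifen and 0.20 and 0.11 in flox cells without and with it, the difference of tamoxifen effects for Thoc2 became -0.064, and the genotype effect with tamoxifen for Thoc7 became -0.00700. With no replicate block, the first count was also 3, and the counts at day 3 were 2, not 3, in control cells and 3, not 4, in flox cells with tamoxifen; the block changed no count of members in the other comparisons. With the day 3 levels, in the fit of all 12 RNA samples, 1 member was called between genotypes without tamoxifen, beside 1962 genes in place of 516 over all genes. Signs turned there for Thoc1 (tamoxifen in control cells, -0.016), Thoc2 (genotype without tamoxifen, -0.15), and Thoc3 (0.020) and Thoc6 (-0.049) between genotypes with tamoxifen. With only the arrays compared, 2 members were called for tamoxifen in flox cells, beside 4661 genes in place of 1623 over all genes. Such a fit was not run for day 3 against day 0, where it leaves no residual degrees of freedom. With Agilent's processed values Thoc1 became 0.092 and 0.081 at day 3 in control cells without and with tamoxifen, -0.011 for tamoxifen in control cells and -0.021 at day 0, and Thoc7 became -0.085 at day 0 and -0.017 between genotypes with tamoxifen. With median centring in place of loess, Thoc6 became -0.065 between genotypes with tamoxifen and 0.071 for tamoxifen in control cells, and Thoc7 -0.12 between genotypes with tamoxifen. The cause of these changes was not tested.

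Leaving out 1 array at a time, with the lone array assumed to vary like the other groups, the members called ranged from 2 to 5 in control cells without tamoxifen at day 3, from 1 to 5 in flox cells with tamoxifen at day 3, and from 0 to 1 both for the difference of tamoxifen effects and for the genotype effect with tamoxifen. At day 3 they ranged from 2 to 3 in control cells with tamoxifen and in flox cells without it. Of 480 such results, 439 were unaffected, 19 lost and 2 gained a call, and 20 changed sign, 0 of them called. Where the count of members called fell to 0, every other gene called in the main fit lost its call too. The ranges of the results that changed sign were, for tamoxifen in control cells, -0.058 to 0.069 (Thoc1) and -0.17 to 0.36 (Thoc3). For Thoc6 and Thoc7 they were -0.32 to 0.25 and -0.050 to 0.28. For tamoxifen in flox cells they were -0.24 to 0.038 (Thoc2) and -0.37 to 0.066 (Thoc3). For the difference of these effects they were -0.015 to 0.36 (Thoc2), -0.51 to 0.021 (Thoc3) and -0.49 to 0.080 (Thoc6). Between genotypes without tamoxifen they were -0.11 to 0.26 (Thoc2), -0.16 to 0.38 (Thoc3) and -0.069 to 0.50 (Thoc6), with tamoxifen -0.14 to 0.16 (Thoc6) and -0.16 to 0.17 (Thoc7), and at day 0 -0.00054 to 0.079 (Thoc1).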
